A study of Mus musculus with 4 samples.

Results

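The calponins (Cnn1, Cnn2 and Cnn3), the transgelins (Tagln and Tagln2) and the cysteine-rich LIM proteins Csrp1 and Csrp2 are small proteins that bind actin filaments or the adhesions and bundles these filaments form. The 7 genes were taken by name, with every probe set that the platform annotation assigns to them: 15 of the 45037 probe sets on the array, for 7 of 18193 named genes. They were picked with the cKO to het differences of some of them known, so those differences are given as a description, with no p-value of their own, and counts of members past a threshold on this contrast describe them and are no evidence.

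The arrays measured RNA of epidermal basal cells that had been sorted, on α6 integrin and YFP, from E16.5 mouse embryos. The 2 cKO arrays (Ko_1210 and KO_1261) came from embryos with both Srf alleles floxed (SRF fl/fl), and the 2 het arrays (het_1210 and het_1261) from embryos with 1 floxed allele (SRF fl/+), which the submitters' design text calls WT. Both genotypes carried K14-Cre and the ROSA26 YFP reporter (fl/fl), so the het cells had also been exposed to Cre and could lose 1 Srf allele. K14-Cre is driven by a keratin promoter of basal keratinocytes, so cells of other lineages, where a sort leaves any, would be expected to keep Srf. The title numbers recur in both groups, so Ko_1210 with het_1210 is called the first pair and KO_1261 with het_1261 the second. No label says what the numbers mark, or whether a sample was 1 embryo or a pool, so the spread between arrays may be in part technical.

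Calponins and transgelins share a calponin homology domain. Calponin 1 and transgelin (SM22α) are classical markers of differentiated smooth muscle, while Cnn2, Cnn3 and Tagln2 are expressed in many other cell types. Csrp1 and Csrp2 carry paired LIM domains, bind the adhesion protein zyxin and the crosslinker α-actinin, and bundle actin. Several of these genes are textbook targets of serum response factor (SRF), which binds a DNA element called the CArG box together with actin-regulated MRTF coactivators.

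Cnn2 was the single member with a CArG box in its RefSeq promoter window, which reaches from 250 bases before to 50 bases after the annotated start site (build GRCm38.p6). The window table held 6 windows for 5 of the members (Cnn1, Cnn2, Cnn3, Tagln2 and a pair of start sites of Csrp1). It held none for Tagln and Csrp2. The CArG box has CC and GG around a core of A and T bases, so it reads as the same motif on both strands, and a window was counted once however many boxes it held. The Cnn2 box is CCTTATAAGG at chr10:79988544-79988553 on the plus strand, from position -56 to position -47 before the start site, and the window held no other. The bases before the start sites of Cnn2 and Csrp1 are shown because these members had the lowest differences between cKO and het by their brightest probe sets, with and without a box. Capitals mark the box.
Cnn2, chr10:79988350-79988599, plus strand: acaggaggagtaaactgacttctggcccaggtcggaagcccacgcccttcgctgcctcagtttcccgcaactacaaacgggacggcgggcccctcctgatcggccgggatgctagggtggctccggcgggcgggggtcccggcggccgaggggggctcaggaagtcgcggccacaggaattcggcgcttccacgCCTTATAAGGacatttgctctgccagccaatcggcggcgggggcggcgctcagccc
Csrp1, upstream start site, chr1:135719813-135720062, plus strand: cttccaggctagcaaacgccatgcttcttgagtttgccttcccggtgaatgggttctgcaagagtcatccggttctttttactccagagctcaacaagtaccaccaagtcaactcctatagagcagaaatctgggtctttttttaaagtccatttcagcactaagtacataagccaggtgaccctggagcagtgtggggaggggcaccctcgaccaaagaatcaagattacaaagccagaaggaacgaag
Csrp1, downstream start site, chr1:135728917-135729166, plus strand: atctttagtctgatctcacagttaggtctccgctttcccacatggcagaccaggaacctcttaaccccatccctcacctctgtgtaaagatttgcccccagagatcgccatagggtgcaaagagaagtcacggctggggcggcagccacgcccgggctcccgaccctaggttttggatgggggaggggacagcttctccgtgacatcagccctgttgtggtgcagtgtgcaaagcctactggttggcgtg

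Over all mouse windows in the table, 535 of 32851 (1.63%) held a CArG box. With 1 mismatch allowed, 21.1% of windows held a match, and among the 6 windows of the members it was again found in that of Cnn2 alone. A match describes the letters in a window and does not show a site in use, and the other windows lack these letters only within this stretch.

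**Figure D1:**
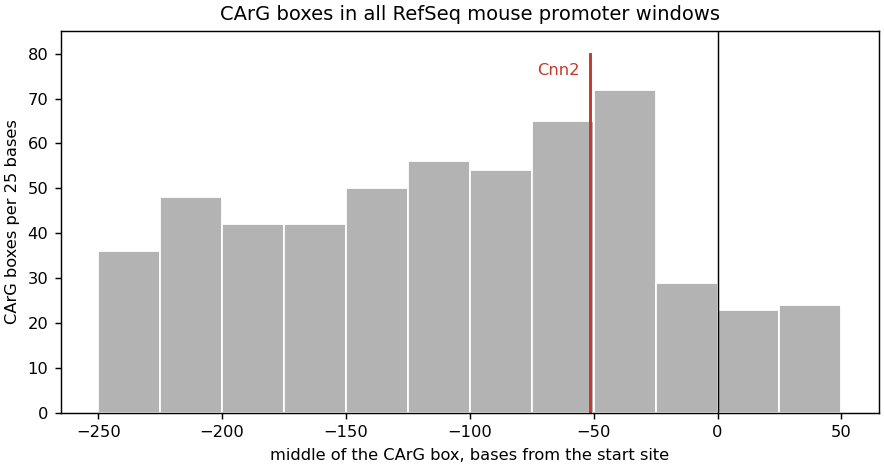
Number of CArG boxes in all RefSeq mouse promoter windows (y axis, boxes per 25 bases) by the distance of the middle of the box from the start site (x axis, bases; the window runs from 250 before to 50 after). The red line marks the box of Cnn2, at positions -56 to -47. The bin next to it, from -50 to -25, held the most boxes (72).

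Both Srf probe sets were lower on the cKO arrays: the brighter gave a signal of 47.9 on Ko_1210 and 80.4 on KO_1261, against 834 on het_1210 and 1108 on het_1261. The floxed exons are not named in the sources used here, so it is unknown whether these probes lie there. The pairs differed technically, since spike-in controls were higher in the first pair. Those added to the RNA before labelling were higher by 2.52-fold in cKO and by 2.45-fold in het, at 12 of 12 probe sets. Hybridization spike-ins were higher by 1.74-fold in cKO and by 1.82-fold in het, at 9 of 9 probe sets. Values within each pair are therefore given throughout, as are counts from a fit that has the pair as a block. The spike-ins also differed between the groups, being lower on average in cKO within each pair. Those added before labelling stood at 0.88-fold of het in the first pair and at 0.86-fold in the second pair. Hybridization spike-ins stood at 0.83-fold and 0.87-fold. Whether this offset bears on the differences of the members was not tested. In the fit without the block 0 of 22518 tested probe sets passed an adjusted p of 0.05 in limma, and 108 had an unadjusted p under 0.05. With the block 194 passed, 82 higher and 112 lower in cKO. Probe sets were tested where their mean log2 signal lay above the median, a signal of 65.9.

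Of the 15 probe sets of the members, 12 passed this filter: all those of Cnn2, Cnn3, Csrp1 and Csrp2 and 2 of the 3 of Tagln2. Those of Cnn1 and Tagln and the third of Tagln2 lay below the filter on all 4 arrays. On the log2(signal + 1) scale the mean difference, cKO minus het, was below 0 for 14 of the 15 probe sets and 0.0066 for that of Tagln. The median difference of the 15 was -0.40, with -0.74 within the first pair and -0.27 within the second pair, beside a median of -0.0073 over all tested probe sets. Both cKO arrays lay below both het arrays at 9 of the 15 probe sets, all 9 among the 12 tested, which was so for 10.4% of all tested probe sets. Of the 9, 4 were of Cnn3 and 2 of Csrp1, so they are not separate genes. By the brightest probe set this was so for 4 of the 5 tested member genes and for 10.9% of all tested genes. The 12 tested probe sets were also all below 0 after median centring and after quantile scaling of the arrays. Since the members were picked on this contrast, these counts describe them and are no evidence about the families.

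**Figure D2:**
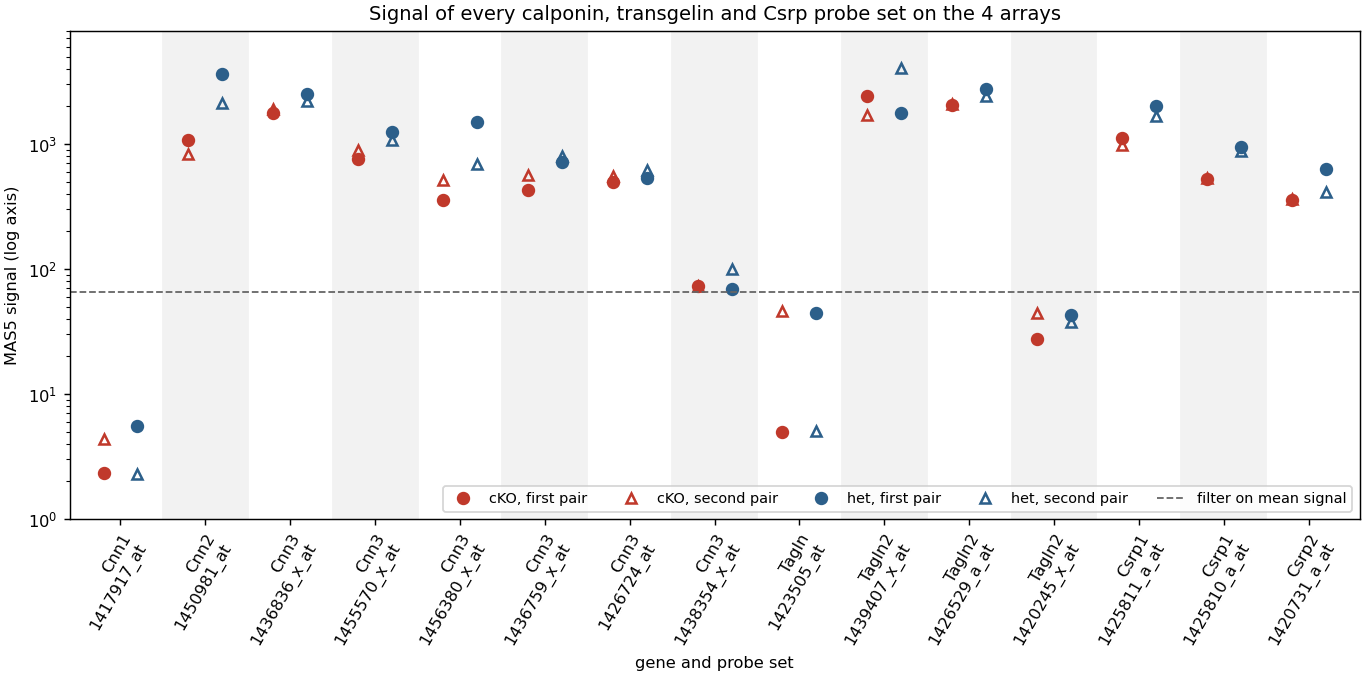
MAS5 signal (y axis, log scale) of the 15 probe sets of the 7 genes (x axis), with 1 point per array: cKO in red left of het in blue, first pair as filled circles and second pair as open triangles. The dashed line is the signal of 65.9 used as filter. The cKO and het points of Cnn2 and of both Csrp1 probe sets do not overlap, while those of Cnn1 and Tagln lie under the line and overlap.

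Cnn2 encodes calponin 2, a calponin of smooth muscle and of many non-muscle cells, which stabilises actin filaments. Its single probe set (1450981_at) had a signal of 1084 on Ko_1210 and 828 on KO_1261, against 3611 on het_1210 and 2131 on het_1261. Both cKO arrays lay below both het arrays, and het_1210 was the highest of the 4. The mean was 956 ± 181 in cKO and 2871 ± 1046 in het (SD, n = 2), so cKO reached 33.3% of het, 30.0% within the first pair and 38.9% within the second pair. The log2 difference was -1.55 ± 0.34 (SE of limma without the block, 0.17 with it), with -1.74 within the first pair and -1.36 within the second pair. Counted from the lowest difference, Cnn2 ranked 22 of 11053 tested genes.

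Csrp1 encodes cysteine-rich protein 1, which bundles actin filaments. The brighter of its probe sets (1425811_a_at) gave 1127 and 977 on Ko_1210 and KO_1261, against 2032 and 1664 on het_1210 and het_1261. The other (1425810_a_at) gave 521 and 540 on the cKO arrays, against 946 and 876 on the het arrays. At both probe sets every cKO array lay below every het array, and the drop was nearly the same size in each pair. The brighter reached 55.5% of het within the first pair and 58.7% within the second pair, and the other 55.1% and 61.6%. The log2 difference was -0.81 ± 0.24 (SE without the block; -0.85 and -0.77 within the first and second pair) for the brighter and -0.78 ± 0.24 (-0.86 and -0.70) for the other. The suffix _a_at marks probe sets that read several transcripts of 1 gene, so they do not tell the transcripts of Csrp1 apart.

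Csrp2, a paralog of Csrp1 known from vascular smooth muscle, had a signal of 356 on Ko_1210 and 365 on KO_1261, against 630 on het_1210 and 411 on het_1261. Both cKO values were alike, and the gap was set by het_1210: cKO reached 56.5% of het within the first pair and 88.9% within the second pair. The mean was 360 ± 6.4 in cKO and 520 ± 155 in het (SD, n = 2), and the log2 difference was -0.50 ± 0.33 (SE without the block; -0.82 and -0.17 within the pairs). Leaving out het_1210 reduced the difference to -0.19, and leaving out het_1261 gave -0.80.

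Cnn3, a calponin found in many non-muscle cells and in brain, was read by 6 probe sets that disagreed in size. The brightest (1436836_x_at) gave 1783 and 1925 on Ko_1210 and KO_1261, against 2516 and 2227 on het_1210 and het_1261. Its cKO arrays lay below its het arrays by a small margin, with a log2 difference of -0.35 ± 0.22 (-0.50 and -0.21 within the first and second pair). The probe set with the lowest difference (1456380_x_at) gave 357 and 512 in cKO, against 1493 and 692 in het, a difference of -1.25 ± 0.46 that came mainly from the first pair (-2.06 and -0.43) and became -0.69 without het_1210. The probe set 1426724_at gave 496 and 560 in cKO, against 538 and 616 in het, so that the groups overlapped and the difference was -0.13 ± 0.26. This was the single Cnn3 probe set without the suffix _x_at, which marks probe sets with probes that may also read other transcripts. Over the 6 probe sets the difference ranged from -1.25 to -0.13 with a median of -0.42, and 4 of the 6 had both cKO arrays below both het arrays.

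Tagln2, the transgelin of non-muscle cells, also gave probe sets that disagreed. The probe set 1426529_a_at gave 2057 and 2084 on Ko_1210 and KO_1261, against 2751 and 2415 on het_1210 and het_1261. Its groups did not overlap, and the difference was -0.32 ± 0.22 (-0.42 and -0.21 within the first and second pair). The probe set with the highest mean signal, 1439407_x_at, gave 2415 and 1717 in cKO, against 1780 and 4041 in het. There the sign turned between the pairs (0.44 and -1.23), with a mean of -0.40 ± 0.46, and the mean became 0.19 without het_1261. The remaining one (1420245_x_at) lay between 27.6 and 44.1 in cKO and at 43.2 and 37.6 in het, all under the filter. The data thus gave no common size for Tagln2.

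Cnn1 and Tagln, the smooth muscle members, had signals near background on every array. Cnn1 gave 2.3 on Ko_1210 and 4.4 on KO_1261, against 5.6 on het_1210 and 2.3 on het_1261. Tagln gave 5.0 and 46.0 in cKO, against 44.7 and 5.1 in het. High and low values of Tagln thus fell on 1 array of each group, and the difference was -2.94 within the first pair and 2.95 within the second pair. MAS5 signals this low are noisy on a log scale, so no change of either gene could be read in either direction. They were not tested.

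**Figure D3:**
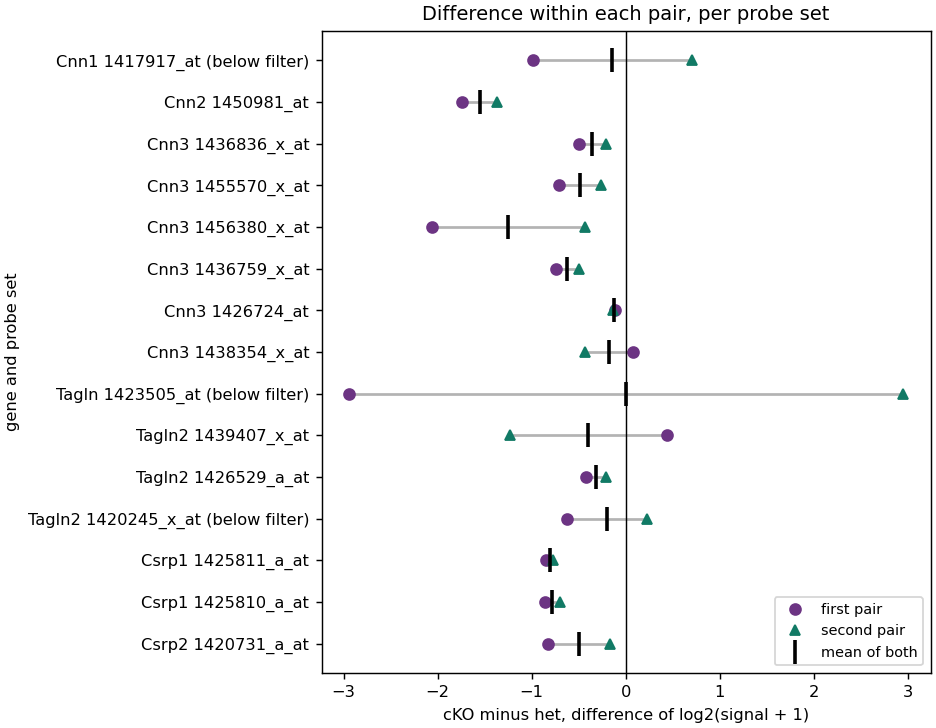
Difference cKO minus het of log2(signal + 1) (x axis) for each of the 15 probe sets (rows), with the value within the first pair as a circle, within the second pair as a triangle and their mean as a black bar. The circle and triangle of both Csrp1 probe sets nearly coincide (-0.86 to -0.70), those of Cnn2 lie at -1.74 and -1.36, and those of Tagln lie on opposite sides of 0.

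In the fit with the block, 4 of the 12 tested probe sets of the members passed. All 4 were lower in cKO: Cnn2, both of Csrp1 and 1456380_x_at of Cnn3. Of all tested probe sets 0.862% passed in either direction and 0.497% passed as lower. With a robust prior 2 of these 4 calls held (Cnn2 and 1425811_a_at of Csrp1), after median centring 1 (Cnn2), and without the variance trend 0. In the fit without the block 0 of the 12 passed (0% of all tested probe sets). An unadjusted p under 0.05 was found for 4 of the 12 and for 108 of all 22518 tested probe sets. A rule free of a variance estimate asked for a signal more than 1.5-fold lower in each of the 4 comparisons of a cKO array with a het array. It was met by 2 of the 12 (Cnn2 and 1425810_a_at of Csrp1) and by 0.613% of all tested probe sets. By the brightest probe set of each gene, Csrp1 ranked 237, Csrp2 735, Tagln2 1076 and Cnn3 1289 of 11053 tested genes, counted from the lowest difference.

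**Figure D4:**
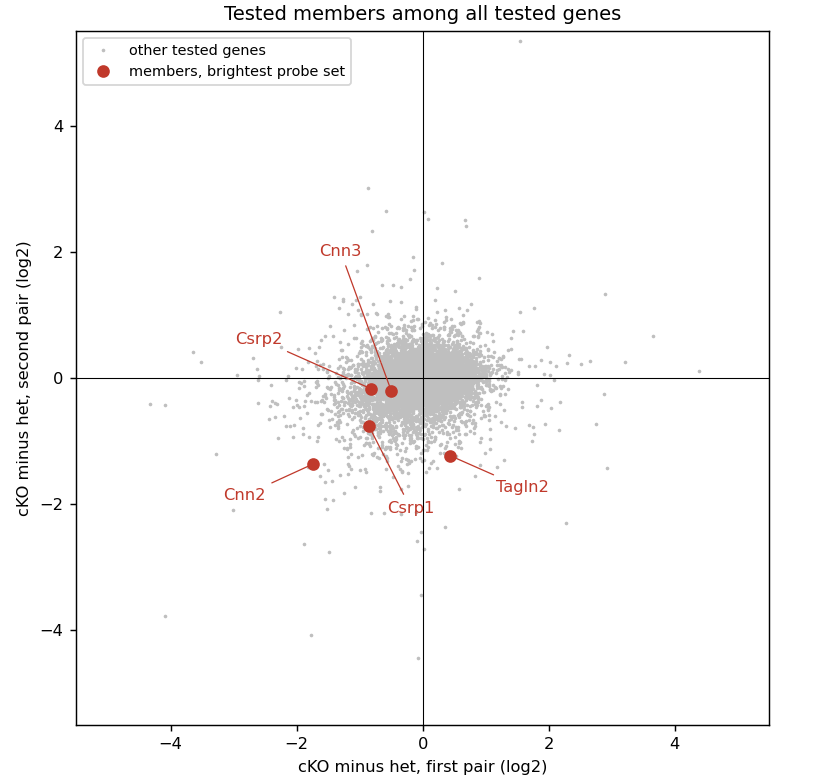
Difference cKO minus het within the first pair (x axis, log2) and within the second pair (y axis, log2) for the brightest probe set of each tested gene. The 5 tested members are in red and the others in grey, with 2 genes outside the axes. Cnn2 (-1.74 and -1.36) lies apart from the bulk at the lower left, Csrp1 (-0.85 and -0.77) at its edge, and Tagln2 is higher in the first pair and lower in the second pair.

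The difference between the pairs, which did not choose the members, was tested in limma with the group as a second term. Cnn2 was lower in the second pair within both groups, by -0.39 in cKO and by -0.76 in het, a mean of -0.57 ± 0.17 (SE, adjusted p = 0.0074). It did not pass without the variance trend or with the group left out of the fit. None of the other 11 tested probe sets passed, with adjusted p from 0.209 to 0.959, while 34.6% of all tested probe sets passed. For Csrp1 the mean differences were -0.25 ± 0.17 and -0.03 ± 0.19. For Cnn3 1456380_x_at the cKO arrays differed by 0.52 and the het arrays by -1.11, and for Tagln2 1439407_x_at by -0.49 and 1.18. With 1 array per group and pair, whether the cKO to het difference itself differed between the pairs could not be tested.

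Among other genes of the smooth muscle contractile apparatus, 15 of the 22 on the array were tested. In the fit with the block 0 passed in either direction, 13 lay below 0 and 2 above, and the median was -0.15 (-0.29 within the first pair and -0.005 within the second pair), beside -0.02 over all tested genes. After median centring, 8 of the 15 lay below 0 with a median of -0.02, while the median of all tested genes moved to 0.098. Both cKO arrays lay below both het arrays for 2 of the 15, against 10.9% of all tested genes. Itga8, an integrin subunit of mesenchymal cells, gave 79.2 and 71.1 in cKO, against 130.1 and 134.3 in het. Pdlim7, an actin-associated LIM protein, gave 320 and 317 in cKO, against 445 and 360 in het. Smooth muscle myosin (Myh11) and leiomodin 1 (Lmod1) lay under the filter on all 4 arrays, as did Pdlim3 and Kcnmb1.

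Of other cytoskeletal genes known as MRTF-SRF targets, 19 of 20 were tested, 5 passed as lower with the block (0.624% of all tested genes did) and 0 as higher. The lists of related genes share Fhl2, Tgfb1i1, Smtn and Zyx. The median difference of the 19 was -0.41 (-0.18 and -0.49 within the first and second pair), with 15 below 0 and 4 above. Both cKO arrays lay below both het arrays for 9 of the 19, against 10.9% of all tested genes. After median centring, 14 of the 19 lay below 0 with a median of -0.29. Fblim1, which links filamin to adhesions, gave 83.0 and 52.1 in cKO, against 308 and 330 in het. Wdr1, a partner of cofilin in filament disassembly, gave 1852 and 1729 in cKO, against 3687 and 2746 in het. The γ-actin gene Actg1 gave 26520 and 19005 in cKO, against 44873 and 32894 in het, and its probe set may also read related actins. The log2 differences were -2.26, -0.83 and -0.78, and all 3 genes fell in the fit with the block.

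Among relatives and binding partners of the members, 10 of 13 genes were tested, 5 were below and 5 above 0, and 0 passed with the block. The median was -0.05 (-0.03 and -0.11 within the pairs), and 0.07 after median centring. Crip1, a small LIM protein, gave 671 and 714 in cKO, against 1476 and 896 in het. Its relative Crip2 gave 211 and 227 in cKO, against 358 and 239 in het. Zyxin (Zyx), to which Csrp1 binds, gave 708 and 602 in cKO, against 790 and 958 in het. For these 3 genes, named because their groups did not overlap, the cKO arrays lay below the het arrays. Their differences of -0.73, -0.42 and -0.41 did not pass. Of the 10 tested genes, 3 had both cKO arrays below both het arrays, against 10.9% of all tested genes. For 1 of the 10 both cKO arrays lay above, as for 903 of all 11053 tested genes. The α-actinin gene Actn4, named after its values were seen, lay the other way, with 12518 and 10518 in cKO, against 8999 and 10024 in het. Its lower cKO signal was above the higher het signal, and its difference of 0.27 did not pass either.

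**Figure D5:**
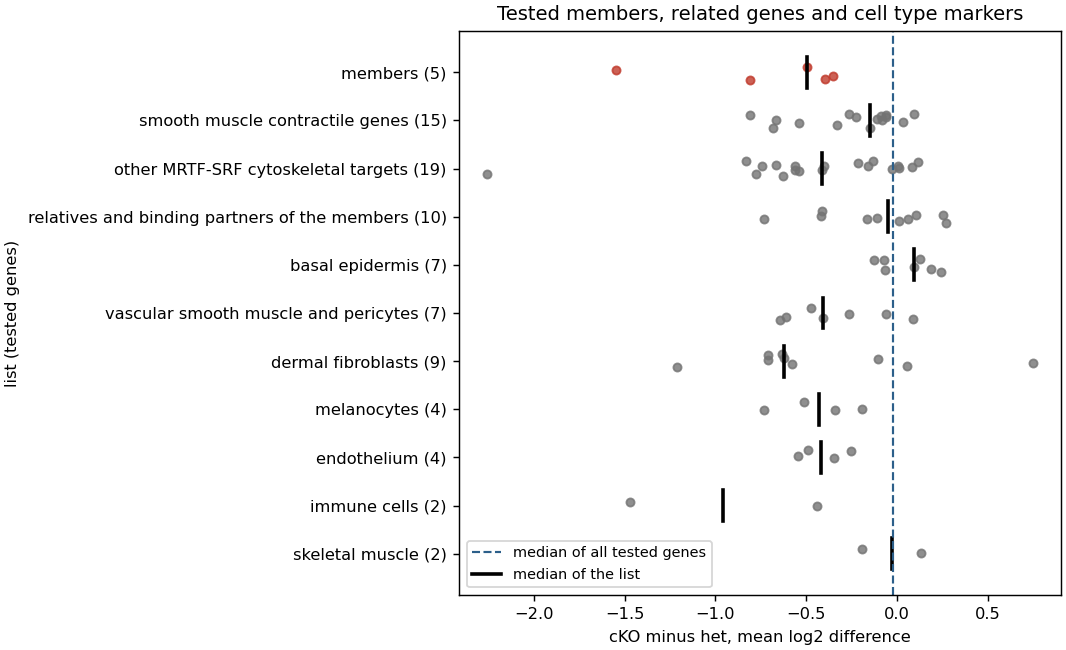
Mean log2 difference cKO minus het (x axis) of each tested gene, by its brightest probe set, in the members, the 3 lists of related genes and the 7 lists of cell type markers (rows, with the number of tested genes). Black bars are the medians of the lists and the dashed line is the median of all tested genes, -0.02. The 5 tested members lie between -1.55 and -0.35, and the basal epidermis markers lie around 0 with a median of 0.09.

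The genes of the 5 tested members are also expressed outside the epidermis, and markers of other cells were measured on the same arrays. In sorted bulk samples fewer cells of a type and less RNA per cell cannot be told apart. The 7 markers of basal epidermis had a summed signal of 115015 to 151924 in cKO and 117899 to 157740 in het, with 0 of 7 past the threshold. The 10 markers of vascular smooth muscle and pericytes summed to 2281 to 2918 in cKO and 2762 to 3142 in het. Of these, 7 were tested and 0 passed, with 6 below 0 and 1 (Mcam) above. Both cKO arrays lay below both het arrays for 4 (10.9% of all tested genes): Rgs5, Pdgfrb, Cspg4 and Notch3. These genes were named after their values were seen. The smooth muscle marker Myh11 lay between 34.4 and 47.8 on all arrays. Other markers were brighter: Notch3 gave 507 and 562 in cKO, against 804 and 623 in het, and Mcam 909 and 1246, against 904 and 1108. The 9 dermal fibroblast markers on the array summed to 54132 to 54796 in cKO and 59548 to 67138 in het. Most of each sum came from Dcn and Postn, whose differences were 0.06 and -0.10, so the sums say little about the dimmer markers. With the block 3 of the 9 passed as lower (0.624% of all tested genes did): Col3a1 (-0.62), Twist2 (-1.21) and Vim (-0.71), named after their values were seen. Both cKO arrays lay below both het arrays for 6 of the 9, beside the same 10.9%. Pdgfra, named after its values were seen, was higher on each cKO array than on either het array, with 91.2 and 154.8 in cKO, against 58.3 and 84.4 in het, and its difference of 0.75 did not pass.

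The median difference of the fibroblast markers was -0.96 within the first pair and -0.20 within the second pair. The markers themselves spread widely, from -1.96 (Twist2) to 0.64 (Pdgfra) within the first pair. Within the second pair they spread from -0.46 (Twist2) to 0.87 (Pdgfra). By the brightest probe sets, the differences of the members within the first pair were -1.74 for Cnn2, -0.85 for Csrp1, -0.82 for Csrp2, -0.50 for Cnn3 and 0.44 for Tagln2. Within the second pair they were -1.36 for Cnn2, -0.77 for Csrp1, -0.17 for Csrp2, -0.21 for Cnn3 and -1.23 for Tagln2. The values of Tagln2 depended on the probe set. Its other tested probe set, 1426529_a_at, gave -0.42 within the first pair and -0.21 within the second pair. The part of dermal fibroblasts in the differences of the members was not tested. The 7 melanocyte markers summed to 655 to 722 in cKO and 648 to 1359 in het. The 6 endothelial markers summed to 308 to 407 in cKO and 480 to 523 in het, and the 6 immune markers to 316 to 445 in cKO and 621 to 671 in het. The 7 skeletal muscle markers summed to 482 to 662 in cKO and 632 to 702 in het. No listed marker had a signal of 0, and Myh11, Mlana, Pecam1, Tek, Ptprc, Cd52, Tnnt3, Tnni1 and Ckm lay under the filter on all 4 arrays. Of these other markers, 4 of melanocytes, 4 of endothelium, 2 of immune cells and 2 of skeletal muscle were tested. In the fit with the block 1 of the tested ones, the immune gene Laptm5, passed as lower, beside 0.624% of all tested genes.

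Profiles most like those of Cnn2 and Csrp1 were sought by the Euclidean distance of the 4 log2 values, centred on their mean, among 11053 tested genes. Nearest to Cnn2 were C1qtnf1 (distance 0.18 log2 units), the alkaline ceramidase gene Acer1 (0.25) and Sdr16c6 (0.36). Acer1 gave 126.1 and 75.7 in cKO, against 361 and 209 in het. Nearest to Csrp1 were the tissue factor pathway inhibitor gene Tfpi (0.060), Lipt1 (0.065) and Gm45351 (0.094). Tfpi gave 153.0 and 139.5 in cKO, against 282 and 227 in het. Lipt1 gave 57.5 and 50.3 in cKO, again under the filter signal, against 105.6 and 90.6 in het. The distance between Cnn2 and Csrp1 themselves was 0.82, since Cnn2 had the larger difference. With 4 arrays such likeness is a description.

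Across all genes, 8986 tested genes had a promoter window, and 139 of these held a CArG box. With the block, 4 of the 139 (2.88%) passed as lower and 1 as higher. Of the 8986, 52 (0.579%) passed as lower and 25 as higher. The 4 were Cnn2, Actg1, Egr2 and Srf, the deleted gene itself, and were named after their values were seen. Srf is the gene that the design targets and Cnn2 was picked with this contrast known, so the share of 2.88% is a description and no evidence. The median difference was -0.08 among the 139 and -0.02 among the 8986, with 90 of the 139 and 4787 of the 8986 below 0. Most genes with a CArG box in the window therefore did not pass, and among the members the box and a call fell together in Cnn2, while both Csrp1 probe sets and 1456380_x_at of Cnn3 passed with no box in the windows of these genes.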

How the data were processed

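Each sample was hybridised to 1 array, from Trizol-extracted RNA labelled with biotin through 3' in vitro transcription, per the labels' protocols. The deposited data are linear intensity values (signals), which the authors computed with MAS5 for every probe set, per the submitters' processing notes. No version of MAS5 is stated in the sources used here. The trimmed mean signal, leaving out 2% at each end, was 500 on all 4 arrays, so only changes relative to that mean are seen.

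The 64 control probe sets were left out. Probe sets were named by the platform annotation and Entrez identifier: 34945 had 1 symbol (34741 matched), 932 several and 9160 none, and the last 2 kinds stayed in the fits unnamed. Values were taken as log2(signal + 1). Probe sets whose mean exceeded the median were tested with limma 3.58.1 in R 4.3.3 (lmFit, eBayes with a variance trend, two-sided, Benjamini-Hochberg over 22518 probe sets, threshold 0.05). For arrays, the number of samples limits the precision. In lists, the probe set of highest mean signal stood for its gene. At most 3 genes per list of related genes were named by rule, those with the largest difference among genes whose groups did not overlap. Alternatives covered the block, variance prior and trend, filter, pseudocount, scaling and left-out arrays. The fits and the motif search were tested on simulated data. The members, lists and tests were chosen with earlier results of these data known. Promoter sequences and positions come from RefSeq (GRCm38.p6). Figures were drawn with matplotlib 3.10.9.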

Additional observations from a re-analysis of the deposited data

How the results depend on the processing

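With the pair as a replicate block the count of probe sets past the threshold for cKO minus het was 194 instead of 0, and 4 instead of 0 for the members. Nothing in the labels says that the numbers mark animals. The deviations of the arrays of a pair from their group means correlated at 0.755 over 22518 probe sets. The block fit had 1 residual degree of freedom and relied on 34.4 prior degrees of freedom from the variance shared over probe sets. With the block and a robust prior 84 probe sets passed, 2 of them of members (Cnn2 and 1425811_a_at of Csrp1), and with the block and no variance trend 0 and 0, with 1505 at an unadjusted p under 0.05. Chosen after seeing the data, median centring with the block gave 109 (74 higher, 35 lower) and 1 (Cnn2), and quantile scaling with the block 365 (187 higher, 178 lower) and 4. Without the block, leaving out each array in turn gave 0 to 5 probe sets, and 0 of members each time. The cause of these changes was not tested.

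Median centring raised the median difference of all tested probe sets from -0.0073 to 0.11 and lowered that of the second minus the first pair to -0.24. For the second minus the first pair, 7788 probe sets passed (4470 higher, 3318 lower), 2728 without the variance trend, 9380 (3010 higher, 6370 lower) after median centring and 8269 (3868 higher, 4401 lower) after quantile scaling. The member probe sets that passed numbered 1 (Cnn2), 0 without the variance trend, 0 with the group left out of the fit and 2 after median centring (Cnn2 and 1425811_a_at of Csrp1).

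Over other settings with all arrays kept, 146 of 146 differences of tested member probe sets kept their sign, and 7 moved by more than 1 SD. The block, variance prior, variance trend and filter leave a difference as it is, so those settings could not change a sign. Only the pseudocount, the scaling and the mean over the probe sets of a gene could. Scaling with the block also repeats the differences of scaling without it. With 1 array left out 46 of 48 kept their sign, the exceptions being Tagln2 1439407_x_at (0.19) and Cnn3 1438354_x_at (0.08), both without het_1261. The difference of Cnn2 ranged from -1.93 to -1.17 and that of the brighter Csrp1 probe set from -0.95 to -0.67. Allowing 1 mismatch raised the share of promoter windows with a CArG box to 21.1%.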
